A study of Mus musculus with 4 samples.

Results

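TIM-3, encoded by Havcr2, its 3 relatives in the mouse TIM family (Havcr1, Timd2 and Timd4) and 3 genes for proteins that bind TIM-3 other than galectins (Ceacam1, Hmgb1 and Bag6) were followed in B16F10 cells, a mouse melanoma line, after treatment with an antibody against TIM-3. These 7 genes were chosen by symbol and not by their measured values. They had 18 probes, each 60 bases long and present as 1 spot, of 41174 probes and 27670 gene names on the array. On each of 4 Agilent 2-colour arrays, Cy5 held cells given a goat polyclonal agonist antibody to mouse TIM3 and Cy3 held cells of the same passage given unspecific goat IgG. Per the labels, both were at 15 ug/ml for 2 h in vitro, and replicates 1 to 4 came from passages 14, 16, 18 and 19. For replicate 3 the antibody comes from the source name, which does not call it agonist and gives no dose or time, and the treatment text covers the IgG cells alone. The replicates are passages of 1 line, so p-values measure the spread between them. Cy5 held the antibody sample on every array, so antibody and dye cannot be told apart at any value below.

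TIM-3 is a cell-surface checkpoint receptor of T cells, dendritic cells and macrophages, with an immunoglobulin variable domain, a mucin stalk and a cytoplasmic tail with tyrosines that Src-family kinases phosphorylate. The variable domain binds phosphatidylserine, CEACAM1 and the chromatin protein HMGB1, while BAG6, also called BAT3, holds the unphosphorylated tail inside the cell. Most of what is known of these contacts comes from immune cells, whereas the cells measured here are a tumour line.

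The probes that carry the results are shown first, since probes of the same gene gave different ratios. Probes are numbered within a gene from the brightest to the dimmest. Coordinates are in the build named by the file headers, mm7, and the strand is the one that the files' coordinates run along. The files do not say whether a probe lies in a coding exon or an untranslated region, so the first 30 bases are printed, except for the second Havcr2 probe, which lies in the coding sequence of the variable domain and is printed whole. Sequences run 5′ to 3′ and come from the scanner files.
Havcr2 probe 1: ctaacaaaatccattagagataacagctct
Havcr2 probe 2: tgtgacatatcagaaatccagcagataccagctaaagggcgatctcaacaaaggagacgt
Hmgb1 probe 1: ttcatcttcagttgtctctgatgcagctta
Hmgb1 probe 2: ctggagggttcctgagagaagatgaggaca
Hmgb1 probe 3: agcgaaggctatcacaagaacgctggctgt
Hmgb1 probe 4: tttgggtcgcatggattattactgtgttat
Bag6 probe 1: ggagagctacaggcagcagctccggtctga
Bag6 probe 4: acggaagtggcccttggtgccaggttgggg

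The receptor transcript was detected at 1 of its 2 probes, and its level after the antibody differed from that after IgG by less than the spread between passages. Havcr2 probe 1 (chr11:46437901-46437960, plus strand) carried the scanner software's flag for a signal well above background in either channel on 4 of 4 arrays. Its processed signal, which that software subtracted for background and normalised between dyes, was 452, 372, 283 and 341 in anti-TIM3 cells of replicates 1 to 4, against 442, 374, 297 and 349 in IgG cells. The channels overlapped, and the array of replicate 1 was the brightest in both. The raw signal was 9.79 to 14.3 times the median of 153 negative-control spots in the anti-TIM3 channel and 3.53 to 6.36 times in the IgG channel, and 0 of the negative-control spots on any array was as bright.

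After normalisation the log2 ratios of Havcr2 probe 1 were 0.02, 0.09, 0.05 and -0.00, where a value above 0 is a higher signal after anti-TIM3, with a mean of 0.04 ± 0.04 (SD, n = 4; limma, p adjusted over all tested probes = 0.400). The 95% confidence interval of the log2 ratio ran from -0.04 to 0.12. In the ratios of the deposited processed signals the mean was -0.019 (limma, adjusted p = 0.712), so the direction depended on the processing. With median centring in place of loess it was 0.21 (adjusted p = 0.749), under which the median of all tested probes was 0.15. No change of Havcr2 was detectable in any of these, and the interval applies to the first processing only.

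Havcr2 probe 2 (chr11:46413172-46413231) lies 24729 bases upstream of probe 1 on the same strand, and it lay close to the negative controls. It was well above background on 1 array in the anti-TIM3 channel and on 0 in the IgG channel, so it was not tested. Its signal was 1.24 to 1.33 times the negative-control median in anti-TIM3 cells and 0.98 to 1.06 times in IgG cells. Between 4 and 11 of the 153 negative-control spots were at least as bright in the anti-TIM3 channel, and between 32 and 97 in the IgG channel. The target of the antibody was thus detected at the downstream probe, and hardly above background at the variable-domain sequence printed above.

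**Figure D1:**
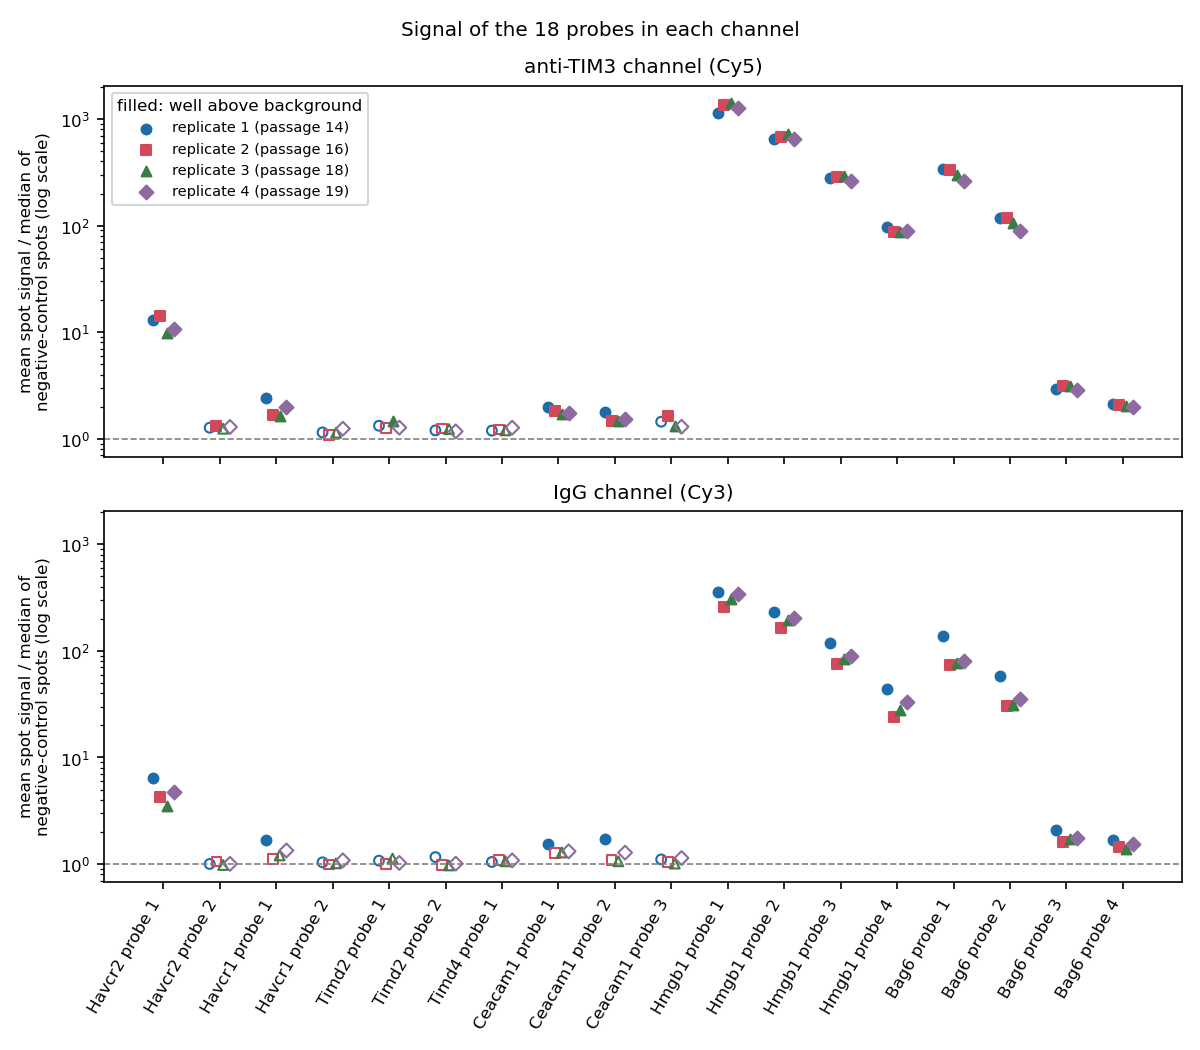
Mean spot signal of each of the 18 probes divided by the median of the 153 negative-control spots of the same array and channel (log axis), for the anti-TIM3 channel above and the IgG channel below. Points are arrays, filled where the probe was well above background, and the dashed line marks the negative-control median. Havcr2 probe 1 and all Hmgb1 and Bag6 probes are filled in both channels on 4 arrays, while probes of the other TIM genes lie near the line; heights of different probes are not comparable levels.

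The other TIM genes gave little or no signal. Havcr1 encodes TIM-1, a phosphatidylserine receptor known from T helper cells and injured kidney epithelium. Its probe 1 (chr11:46730498-46735285, a span of 4788 bases that crosses an intron) was well above background on 4 arrays in the anti-TIM3 channel and on 1 in the IgG channel. The processed signal of Havcr1 probe 1 was 45.3, 16.7, 16.9 and 29.6 in anti-TIM3 cells, against 45.7, 10.996, 19.1 and 27.0 in IgG cells, and replicate 1 was the highest in both. The ratios averaged 0.03 ± 0.07 on the log2 scale (SD, n = 4; limma, adjusted p = 0.580) and lay on both sides of 0. Havcr1 probe 2 was well above background on 0 arrays in either channel.

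Timd2, the rodent TIM gene whose product takes up H-ferritin, and Timd4, which encodes a phosphatidylserine receptor of resident macrophages, were not tested, since none of their 3 probes passed the filter. Timd2 signals were 1.17 to 1.47 times the negative-control median in anti-TIM3 cells and 0.97 to 1.16 times in IgG cells. Timd4 signals were 1.19 to 1.27 times that median in anti-TIM3 cells and 1.05 to 1.09 times in IgG cells, and at least 4 negative-control spots were as bright on every array in the anti-TIM3 channel. Timd2 probe 1 was well above background on 1 array in the anti-TIM3 channel, that of replicate 3, where 2 negative-control spots were as bright, and the other 2 probes were on 0 arrays in either channel. The signal of these arrays does not show that the transcripts are absent. By the files' coordinates the probes of the 4 TIM genes lie in 1 stretch of chromosome 11, in the order Havcr2, Timd2, Havcr1 and Timd4, with only the Havcr2 signal clear of background in both channels on every array.

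Ceacam1, which encodes a cell adhesion molecule that binds TIM-3, was dim and did not pass the test. Probe 1 (chr7:22300907-22300966) had processed signals of 34.5, 23.6, 22.5 and 25.6 in anti-TIM3 cells, against 37.8, 27.4, 33.1 and 30.7 in IgG cells. The anti-TIM3 value was the lower on all 4 arrays, while the ranges of the channels overlapped. The log2 ratios were -0.07, -0.07, -0.13 and -0.04, with a mean of -0.08 ± 0.04 (SD, n = 4; limma, adjusted p = 0.114). Its 95% confidence interval ran from -0.15 to -0.00. In the deposited processed signals the mean log2 ratio of the same probe was -0.29 (limma, adjusted p = 0.0571).

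Ceacam1 probe 2 (chr7:22302727-22302786) had log2 ratios of -0.26, 0.00, 0.01 and -0.11, so replicate 1 set most of its mean of -0.09 ± 0.13 (SD, n = 4; limma, adjusted p = 0.186). Both probes were well above background on 4 arrays in the anti-TIM3 channel but on 1 in the IgG channel, the array of replicate 1. Probe 3 was not tested, and the files list for it an accession of Ceacam2, a close paralog in mouse. A further probe, named Ceacam2 here, lists 3 Ceacam1 accessions and cleared background in both channels on 4 arrays. Its processed signals were 786, 482, 268 and 387 in anti-TIM3 cells, against 750, 469, 275 and 350 in IgG cells, with a mean log2 ratio of 0.04 ± 0.06 (SD, n = 4; limma, adjusted p = 0.452). Which of these paralogs that probe measured in B16F10 cells was not tested, so the Ceacam1 values remain uncertain.

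Hmgb1 encodes an abundant nuclear DNA-bending protein that acts as an alarm signal once outside the cell, where TIM-3 can bind it. All 4 of its probes cleared background in both channels on every array, and 1 of the 4 was called, in the direction opposite to the others. Probe 1 (chr5:147942179-147942200, minus strand) had processed signals of 33041, 30747, 36457 and 34773 in anti-TIM3 cells, against 31832, 29913, 35293 and 35459 in IgG cells. The anti-TIM3 value was the higher on 3 of 4 arrays, and the ranges of the channels overlapped. The log2 ratios after normexp and loess were 0.17, 0.12, 0.15 and 0.08, above 0 on all 4 arrays, and probe 1 rose by a mean of 0.13 ± 0.04 (SD, n = 4; limma, adjusted p = 0.0235).

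The rise of Hmgb1 probe 1 was lost in the deposited processed signals, with a log2 ratio of 0.028 (limma, adjusted p = 0.573), and after removal of the trends with brightness and base content, with 0.014 (adjusted p = 0.778). Without replicate 1, 2 or 3 its log2 ratio stayed between 0.12 and 0.13 but did not pass with 3 arrays (adjusted p = 0.0601, 0.0697 and 0.0843). Of all probes in its intensity range, at 15 to 16 in mean log2 intensity, 41.7% were called higher. The part of brightness in this rise was not tested beyond that removal.

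The other Hmgb1 probes had ratios below 0 that did not pass. Probe 2 (chr5:147947943-147948002) had log2 ratios of 0.09, -0.17, -0.11 and -0.09 and a mean of -0.07 ± 0.11 (SD, n = 4; limma, adjusted p = 0.269). Probe 3 (chr5:147942179-147942203) was below 0 on 4 of 4 arrays, at -0.07, -0.14, -0.10 and -0.07 (mean -0.10 ± 0.04, SD; limma, adjusted p = 0.0636). Probe 4 (chr5:147943047-147943106) was likewise below 0 on 4 of 4 arrays, at -0.07, -0.09, -0.12 and -0.08 (mean -0.09 ± 0.02, SD; limma, adjusted p = 0.0676). With median centring in place of loess the log2 ratios of probes 2, 3 and 4 were 0.46, 0.34 and 0.23, so their direction depended on the normalisation.

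Probe 1 lay above each of the others on every array, by a mean log2 difference of 0.20, 0.23 and 0.22 over probes 2, 3 and 4. With 4 arrays an exact sign-flip permutation test (two-sided) cannot go below p = 0.125, the value of each of these 3 differences, and over the 13 probe pairs compared within genes the adjusted p was 0.271. The coordinates that the files give for probes 1 and 3 cover only 22 and 25 bases of their 60, so the files place only part of either probe on the genome. The mouse genome also carries processed copies of Hmgb1, and whether they add to any of these signals was not tested. The ratio of Hmgb1 as a gene therefore had no single direction over its probes.

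**Figure D2:**
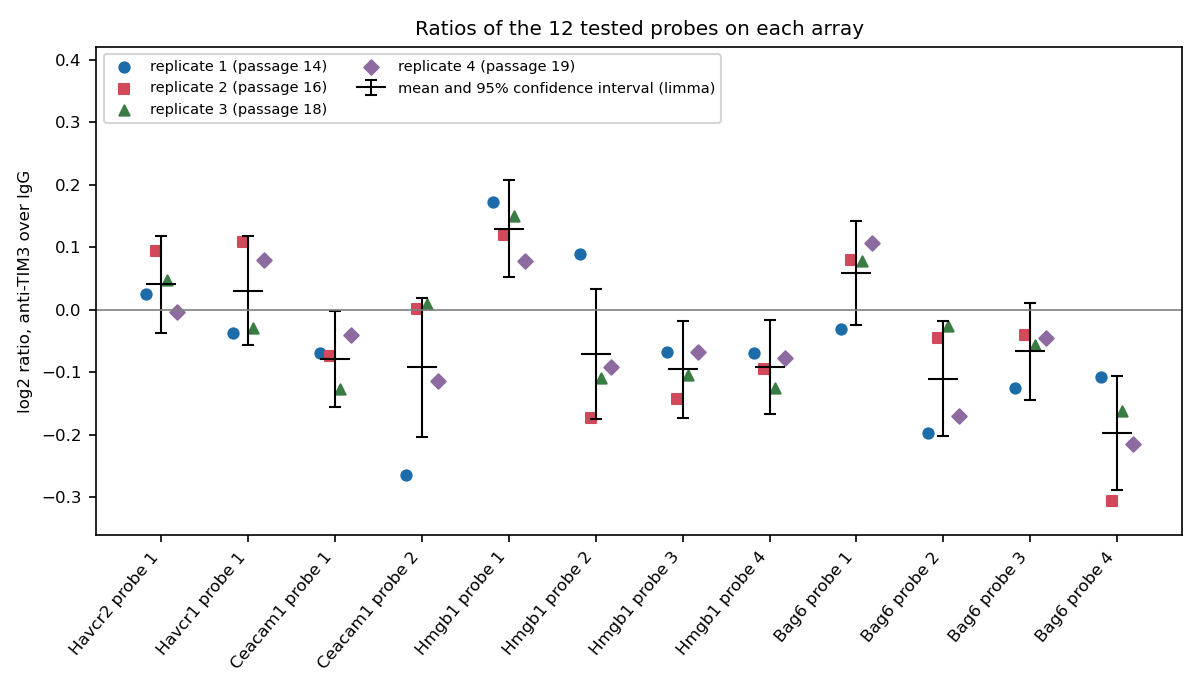
Log2 ratio of anti-TIM3 over IgG on each of the 4 arrays for the 12 tested probes after normexp and loess, with the mean and limma's 95% confidence interval. Hmgb1 probe 1 lies above 0 on all 4 arrays, while the means of Hmgb1 probes 2, 3 and 4 lie below 0. Bag6 probes 2, 3 and 4 lie below 0 on all 4 arrays, while the mean of Bag6 probe 1 lies above 0.

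Bag6 encodes a chaperone that guards newly made membrane proteins and, bound to the TIM-3 tail, restrains its inhibitory signalling in T cells. The files name it by its older symbol, Bat3. Its 4 probes cleared background in both channels on every array, and 1 of them fell. Probe 4 (chr17:33232575-33233277, a span of 703 bases that crosses an intron) had processed signals of 38.5, 30.5, 33.3 and 33.6 in anti-TIM3 cells, against 51.6, 48.4, 43.95 and 52.6 in IgG cells. The channels did not overlap. Its log2 ratios were -0.11, -0.31, -0.16 and -0.22, a mean of -0.20 ± 0.08 (SD, n = 4; limma, adjusted p = 0.00880). Its 95% confidence interval ran from -0.29 to -0.11.

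For Bag6 probe 4 the deposited processed signals gave a log2 ratio of -0.53 ± 0.14 (SD, n = 4; limma, adjusted p = 0.0163), more than 1.5 times as large. The call was lost after removal of those trends (-0.07, adjusted p = 0.205), and 65% of the bases of this probe are G or C. With the channels fitted separately, which leaves the ratio at -0.20, it did not pass (adjusted p = 0.0706), and it held without any one replicate (adjusted p from 0.0167 to 0.0376). Among all probes at 7 to 8 in mean log2 intensity, 9.65% were called lower.

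The brightest Bag6 probe did not follow probe 4. Probe 1 (chr17:33244034-33244330) had processed signals of 12858, 10362, 10290 and 9872 in anti-TIM3 cells, against 13086, 9650, 9712 and 9046 in IgG cells. Its log2 ratios were -0.03, 0.08, 0.08 and 0.11, with replicate 1 below 0 and the others above it (mean 0.06 ± 0.06, SD, n = 4; limma, adjusted p = 0.259). Probe 2 (chr17:33243235-33243294) was below 0 on 4 of 4 arrays with a mean log2 ratio of -0.11 ± 0.09 (SD; limma, adjusted p = 0.0725). Probe 3 (chr17:33238748-33239013) was below 0 on 4 of 4 arrays too, at -0.07 ± 0.04 (SD; limma, adjusted p = 0.171), and in the deposited processed signals it passed (-0.25, adjusted p = 0.0327).

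Along the plus strand the Bag6 probes run in the order 4, 3, 2 and 1, and the starts of probes 4 and 1 lie 11459 bases apart. Probe 1, the one nearest the 3′ end of the gene on this strand, lay above probes 2, 3 and 4 on every array, by mean log2 differences of 0.17, 0.12 and 0.26. Each difference had the smallest p that the exact sign-flip permutation test allows with 4 arrays, 0.125 (adjusted p = 0.271 over 13 pairs). The call for Bag6 thus rests on a dim probe at the 5′ side, and the brightest probe, which stands for the gene in 1-probe-per-gene counts, was not called. After removal of the trends with brightness and base content, probe 1 was called higher (0.13, adjusted p = 0.0318) and probe 4 was not called.

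Over all members, 12 of the 18 probes passed the filter, and of these 1 rose and 1 fell. The background in the same fit was 14.2% of 26545 tested probes called higher and 13.6% called lower, 27.8% in all, so the members were not called more often than probes in general. Their 12 mean log2 ratios ran from -0.20 to 0.13 with a median of -0.07, against a median of 0.01 over all tested probes. Before adjustment, 1 of the 12 was higher and 5 were lower at p under 0.05 in limma. Of all 26545 tested probes, 11128 were at p under 0.05 before adjustment, in either direction. In the deposited processed signals limma called 0 member probes higher and 2 lower (0 and 6 at an unadjusted p under 0.05), where 10.8% and 8.97% of all probes were called. There 10566 of the 26545 probes were at an unadjusted p under 0.05, in either direction.

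**Figure D3:**
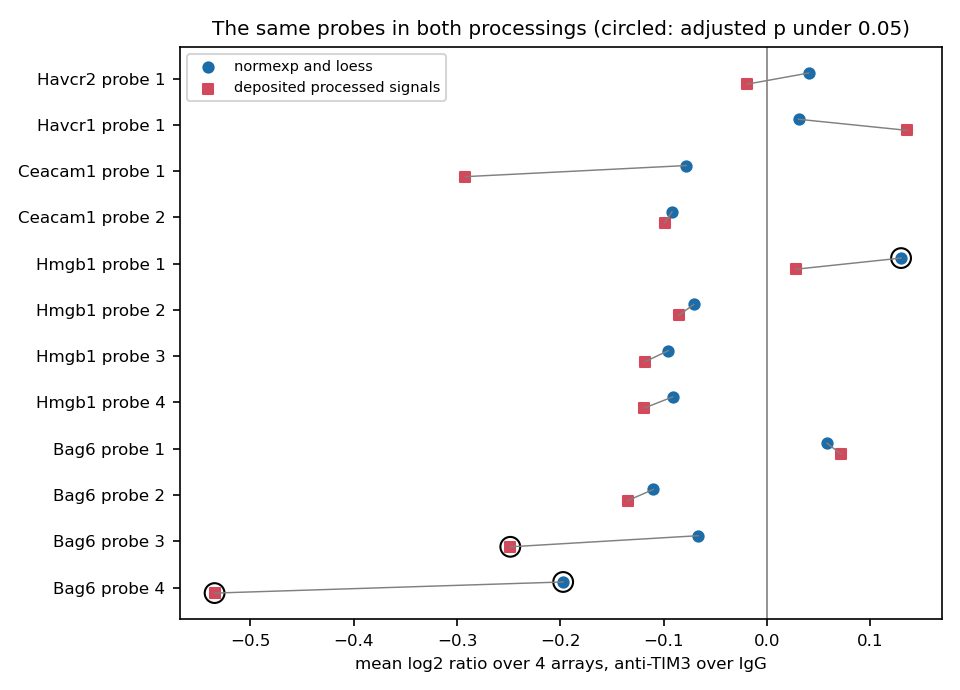
Mean log2 ratio over 4 arrays, anti-TIM3 over IgG, of the 12 tested probes after normexp and loess (circles) and in the deposited processed signals (squares), with adjusted p under 0.05 marked by an outer ring. Only Bag6 probe 4 is ringed in both; the dim Ceacam1 probe 1 and Bag6 probes 3 and 4 have the larger ratios in the deposited signals.

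The genes whose ratios over the 4 arrays lay nearest to those of Havcr2 probe 1 were Atp2b3, Taok3 and Adprm, at Euclidean distances of 0.014, 0.016 and 0.017 in log2 units. For Hmgb1 probe 1 they were Nsl1, Rufy1 and Exo5, at 0.021, 0.028 and 0.032. At a distance of up to 0.1 lay 1384 of 23063 named probes for Havcr2 and 349 of 23060 for Hmgb1.

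Genes that act next to the members were read at 1 probe per gene, the brightest one tested. Of the called genes below, Lyn, Hmgb2, Bag3 and Bag4 had 2 tested probes each, and the dimmer one was not called. Hmga2 and Itgb3 had 1 dimmer probe also called higher. Over 6 related lists, 10 of 63 tested genes were called higher and 10 lower, 15.9% each way, close to the shares of all probes given above. These pooled counts do not describe single lists, since lists of opposite direction cancel in them. The counts of each list below stand beside 14.2% of all tested probes called higher and 13.6% called lower. No list was tested as a set, and the genes below are given for their own values. Of the kinases, adaptors and proteases of TIM-3 signalling and shedding, 16 of 20 genes were tested, 2 rose and 2 fell. The median log2 ratio over the 16 was -0.01. Lyn and Lck, Src-family kinases of which Lck can phosphorylate TIM-3 in T cells, had log2 ratios of 0.24 ± 0.14 and 0.14 ± 0.09 (SD, n = 4; limma, adjusted p = 0.0111 and 0.0368). The Src-family kinase gene Yes1 fell by 0.18 ± 0.08 and Syk, a kinase of immune receptors, by 0.15 ± 0.09 (adjusted p = 0.0102 and 0.0288), and Yes1 was at 0.04 with median centring. Deposited processed signals gave Lck 0.14 and Syk -0.19, neither past the threshold (adjusted p = 0.0569 and 0.0583), and neither passed without replicate 2, 3 or 4. Fyn, which also binds the TIM-3 tail, did not pass at -0.08 (adjusted p = 0.104), nor did the sheddase genes Adam10 and Adam17, at 0.00 and -0.09. The other tested Adam17 probe was called lower. Src, Csk and Pik3r1 did not pass at the brightest probe either, and each had 1 dimmer probe called lower. Ptpn11 likewise had 1 dimmer probe called higher.

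Of the BAG6 complex and the BAG family, 11 of 12 genes were tested, 4 fell and 0 rose in limma (7 were lower and 0 higher at an unadjusted p under 0.05). Over all tested probes, 11128 of 26545 were at an unadjusted p under 0.05 in this fit, in either direction. Get3, the ATPase that receives tail-anchored proteins from the BAG6 complex, fell on all 4 arrays, at log2 ratios of -0.51, -0.48, -0.43 and -0.49 (limma, adjusted p = 0.000152). The deposited processed signals gave -0.52 for Get3 (adjusted p = 0.00860), and its ratio was below 0 in all 15 other settings, past the threshold in 14. Bag3, a stress-induced co-chaperone, fell by 0.24 ± 0.03 (SD; adjusted p = 0.00201), Get1, which anchors Get3 at the membrane, by 0.12 ± 0.04 (adjusted p = 0.0264) and Bag4, a silencer of death receptors, by 0.12 ± 0.04 (adjusted p = 0.0300). With median centring these 3 genes were above 0, at 0.16, 0.24 and 0.09, and the list's median was 0.27 there against -0.10 after loess. In the deposited processed signals 2 genes of the list were called lower, Get3 and Bag3, while Get1 and Bag4 did not pass (-0.10 each, adjusted p = 0.109 and 0.0920). Without replicate 2 or 3 Get1 and Bag4 did not pass either. Ubl4a and Sgta, partners of BAG6 in the same handover, did not pass, at -0.09 and -0.06.

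Among HMGB relatives and receptors of HMGB1, 13 of 15 genes were tested, 5 rose and 1 fell. The median log2 ratio over the 13 was 0.10. The chromatin protein genes Hmga2, Hmga1 and Hmgn1 rose by 0.25 ± 0.12, 0.23 ± 0.06 and 0.19 ± 0.09 (SD, n = 4; limma, adjusted p = 0.00628, 0.00309 and 0.0111), and Hmgb2, the nearest relative of Hmgb1, by 0.17 ± 0.08 (adjusted p = 0.0154). The Hmga1 and Hmgn1 probes lay at 16 to 17 in mean log2 intensity, where 89.4% of all probes were called higher. The Hmgb2 probe lay at 15 to 16, where 41.7% were. After removal of the trends with brightness and base content, Hmgb2 and Hmgn1 were at 0.08 each and did not pass (limma, adjusted p = 0.172 and 0.0964). Hmga1 and Hmga2 still passed after that removal, at 0.10 and 0.19 (adjusted p = 0.0497 and 0.0296). In the deposited processed signals Hmga1 was at 0.03, Hmgn1 at -0.02 and Hmgb2 at 0.13, none past the threshold, while Hmga2 passed at 0.29 (adjusted p = 0.0361). Hmgb3 and Xpo1 also passed in those signals, at 0.17 each (limma, adjusted p = 0.0283 and 0.0317). After loess they were at 0.09 and 0.10 and did not pass (adjusted p = 0.0748 and 0.0535). The other tested Hmgn1 probe fell. Hmgn2 was the gene of this list called lower, at -0.13 ± 0.03 (SD, n = 4; limma, adjusted p = 0.0239). It passed in the deposited processed signals too (-0.32, adjusted p = 0.0184), and was at 0.51 with median centring. Of the receptors, Tlr9, which senses DNA, rose by 0.12 ± 0.05 (SD; limma, adjusted p = 0.0373), passed in the deposited processed signals (0.15, adjusted p = 0.0492) and did not pass once any single replicate was left out (adjusted p from 0.0568 to 0.124). The receptor genes Tlr4 and Tlr2 did not pass, at 0.09 and -0.02.

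Of the CEACAM relatives 3 of 16 genes were tested, and 1 fell, Ceacam20 (-0.14 ± 0.06, SD; limma, adjusted p = 0.0207). In the deposited processed signals Ceacam20 missed the threshold (-0.15, adjusted p = 0.0529), and 1 gene of the list was called higher, Ceacam13, which was well above background on 0 IgG arrays. Of the other phosphatidylserine receptors and bridging proteins 16 of 18 were tested, 2 rose and 2 fell. The median log2 ratio over these 16 was -0.06. The integrin genes Itgb5 and Itgb3 rose by 0.11 and 0.10 and Mertk fell by 0.12, with adjusted p between 0.0461 and 0.0489. Gas6, which encodes the ligand of Mertk, was the other one called lower (adjusted p = 0.0376), but it was well above background on 0 IgG arrays, so no size is given, and its ratio was above 0 in the deposited processed signals. None of these 4 phosphatidylserine genes was called without replicate 2, 3 or 4. Adgrb1 did not pass at its brightest probe (-0.06; limma, adjusted p = 0.216), and 1 dimmer probe was called lower. In the deposited processed signals its brightest probe was called lower (-0.30, adjusted p = 0.0306). Itgav did not pass at -0.09 (adjusted p = 0.0778), and 1 dimmer probe was called higher. Among other ligands of TIM proteins, 5 of 6 genes were tested and 1 rose, Fth1, which encodes H-ferritin, the ligand of TIM-2 in mouse. Fth1 had a mean log2 ratio of 0.55 ± 0.05 (SD, n = 4; limma, adjusted p = 0.000108) at a mean log2 intensity between 16 and 17, and 0.21 in the deposited processed signals (adjusted p = 0.0495). Lgals9, which encodes galectin-9, did not pass, at 0.01 (adjusted p = 0.920).

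**Figure D4:**
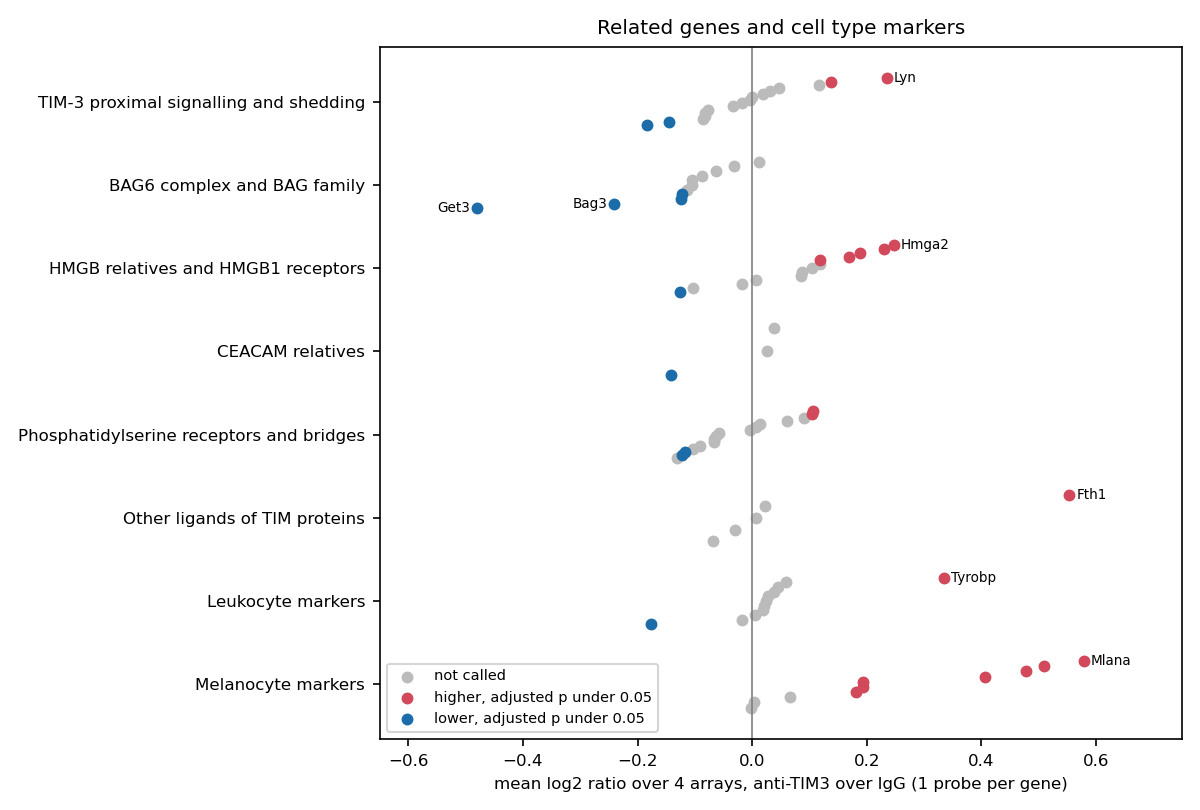
Mean log2 ratio over 4 arrays, anti-TIM3 over IgG, of each tested gene in the 6 related lists and the leukocyte and melanocyte marker lists, at 1 probe per gene after normexp and loess. Points are genes, coloured where adjusted p was under 0.05, and Get3 at -0.48 and Fth1 at 0.55 lie farthest from 0 in the related lists.

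The labelled cell type was checked against markers. All 10 melanocyte markers cleared background in both channels of every array, and their summed processed signal was 409763 to 513292 in anti-TIM3 cells and 354401 to 484781 in IgG cells. Of these, 7 rose and 0 fell in limma (also 7 and 0 at an unadjusted p under 0.05). Over all tested probes, 11128 of 26545 were at an unadjusted p under 0.05, in either direction. The median log2 ratio of the 10 markers was 0.19. The other tested probe of Sox10 was called lower, and those of Dct and Mitf were called higher. Tyrp1, Dct, Pmel and Mlana lay at 16 to 17 in mean log2 intensity, where 89.4% of all probes were called higher. In the deposited processed signals 2 of the 10 were called higher, and Tyrp1, Dct and Slc45a2 were at 0.12, 0.10 and 0.04 and did not pass. Of 18 leukocyte markers, 9 were well above background on all anti-TIM3 arrays and 6 on all IgG arrays, and the leukocyte sum was 660 to 899 in anti-TIM3 cells and 631 to 813 in IgG cells. Tyrobp, an immune receptor adaptor, rose by 0.33 ± 0.09 and Cd14, a monocyte marker, fell by 0.18 ± 0.13 (SD, n = 4; limma, adjusted p = 0.00136 and 0.0294). Cd14 was well above background on 1 of 4 IgG arrays, and its call was lost with deposited processed signals (adjusted p = 0.0714) and without replicate 2 or 3. The defining markers Ptprc, Cd3d, Cd3g, Itgam, Adgre1, Ms4a1 and Cpa3 were not well above background on all arrays of either channel at any probe. The part of other cells in the Havcr2 signal was not tested. Over all probes, 25703 to 28400 were well above background in the anti-TIM3 channel and 21151 to 22086 in the IgG channel, and negative-control spots had medians of 46.5 to 53.7 in the anti-TIM3 channel and 75.4 to 99.8 in the IgG channel.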

How the data were processed

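Linear spot intensity per channel is in the deposited scanner files, and per the file headers the software was Agilent Feature Extraction 9.5.1.1 (9 per the submitters' processing notes). The log10 ratios in the deposited value table (Cy5 over Cy3) matched the scanner files' own ratios with a largest difference of 0, and each array's median was 0. The files also give a p-value per spot, made by the authors' scanner software, which supports no result here. The deposited processed signals were background-subtracted and dye-normalised per the file headers.

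Mean signals were corrected by normexp (offset 50) with the local background median and normalised within arrays by loess, with control spots given weight 0. Outlier-flagged spots were dropped. A probe was tested if 3 or more of the 4 arrays had it well above background in one channel or the other. Log2 ratios computed from the deposited intensity were fitted with limma 3.58.1 (R 4.3.3; lmFit and eBayes, two-sided, against 0). P-values were adjusted by Benjamini-Hochberg across the 26545 tested probes, and 0.05 was the threshold. The steps were tested on simulated data. All 4 arrays lay on 1 slide in 1 scan. The number of arrays limits the precision.

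Members and lists were chosen with earlier results of these data known. Named genes are all members, up to 4 called genes per related list by absolute ratio, and the 3 nearest profiles to Havcr2 and Hmgb1. Tlr9, Hmgn2, Ceacam13, marker genes and the list genes that did not pass were chosen after their values were seen. Probes were named through a RefSeq table of GRCm38.p6: 22951 by accession, 6659 by symbol, 3109 by synonym, and 8455 kept the file's name.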

Additional observations from a re-analysis of the deposited data

How the results depend on the processing

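Every member ratio was recomputed under 15 other settings. Havcr2 turned to -0.019 with the deposited processed signals, was 0.21 with median centring and passed under none of the 15. Hmgb1 no longer passed with a normexp offset of 10 (0.12), the deposited processed signals (0.028), median centring (0.73), channels fitted separately (0.13) or trends removed (0.014), and leaving out a replicate gave 0.12 to 0.15. Bag6 at its brightest probe passed only with trends removed (0.13). Member probes called higher were 0 under each of those first 4 settings, and 0 to 1 without a replicate. Member probes called lower were 2 with the deposited processed signals, 3 with array weights, and 0 with median centring, channels fitted separately or trends removed. Related genes called higher were 6 with offset 10, 0 with median centring, 2 with channels fitted separately, and 5 to 8 without a replicate, against 10. Related genes called lower were 5 with the deposited processed signals, 0 with median centring, 1 with channels fitted separately, and 3 to 7 without a replicate, against 10. Under median centring the median of all tested probes was 0.15, 0 probes passed in limma (1006 at an unadjusted p under 0.05), and these changed sign: Havcr1 probe 1 (-0.10), Hmgb1 probes 2, 3 and 4 (0.46, 0.34 and 0.23) and Bag6 probe 2 (0.23). All probes called numbered 586 with channels fitted separately and 4222 to 6110 without a replicate, against 7376. The causes were not tested. Signal near the negative controls limits Ceacam1, Havcr1, Timd2 and Timd4. Each array pairs both samples of its passage, so the replicate block is part of every ratio. Fitting the channels separately, with no replicate block, leaves the Hmgb1 ratio at 0.13 by construction. That unchanged ratio therefore says nothing of the block. Only the p-value can change in that fit, and Hmgb1 did not pass there.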
